A study of Mus musculus with 8 samples.

Results

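Tumour cells of the GL261 glioma were compared between the late and the early stage of growth in wild type (WT) and Acod1 knock-out (KO) mice. A cell counted as a tumour cell when the unique molecular identifiers (UMIs, each tagging 1 captured RNA molecule) of Col9a1, Col3a1, Lect1, Rhox5, Car6 and Syt4 together made up at least 10 of every 10000 of its UMIs, with at least 3 of these 6 genes detected. The myeloid genes Tyrobp, Fcer1g and Ctss together had to stay at or below 20 per 10000. The rule was applied to the 1000 barcodes with the most UMIs in each library, where at least 1000 genes had been detected. It found 1802 tumour cells among the 2949 cells of the 4 early and late libraries, and 3270 among the 5698 cells of all 8 libraries.

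The study used Drop-seq, a droplet method that tags the RNA of each captured cell near its 3′ end, and made 1 library per genotype from naïve brain and from early, intermediate and late tumours. Each tumour grew from 500 GL261 cells, a mouse glioma line kept in culture, injected into the right striatum per the labels and into the frontal cortex per the methods. Brains were taken at a tumour volume of 5 to 10 mm3 (early), 20 to 25 mm3 (intermediate) or 30 to 35 mm3 (late). By the volumes the study reports, the WT early tumour lay near the lower limit of its range and the KO early tumour near the upper. Per the methods, the tissue dissociated was the tumour core, located by magnetic resonance imaging. Per the methods, KO hosts (labelled Irg1/Acod1 -/-) were homozygous for the tm1a allele of Acod1, which carries a cassette between exons 3 and 5, and WT hosts (Irg1/Acod1 +/+) were their C57BL/6N littermates. The same line was implanted in both, so the genotype is that of the host and not of the tumour cells. The WT early and KO intermediate hosts were female and the other 4 tumour-bearing hosts were male. The hosts are described as age-matched, with no ages in the sources used here. Each tumour-bearing library is 1 mouse, so a stage has 2 libraries that also differ in genotype and, at the early and intermediate stages, in sex. P-values of the main test rest on how far the late-over-early ratio differed between WT and KO, with 1 residual degree of freedom. The variance of each gene was also drawn towards that of other genes (9.95 prior degrees of freedom). The spread between mice of the same genotype and stage was not measured. Late over early, the WT ratio also sets a male against a female host, while the KO ratio compares males.

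GL261 tumours grow in hosts with an intact immune system. Interferon-γ, released by T cells and NK cells, binds its receptor on other cells and signals through the kinases Jak1 and Jak2, and Irf1 is among the factors that then switch on genes for antigen presentation. MHC class I carries peptides of the cell's own proteins to CD8+ T cells. MHC class II, which most cells express only after exposure to interferon-γ and under the coactivator Ciita, carries peptides to CD4+ T cells. The interferon-induced GTPases (the Irg and Gbp families) act in mouse cells against intracellular microbes and are among the most inducible targets of this pathway.

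Tumour cells were 34.9% of the kept cells in the WT early library (252 of 722, exact binomial 95% interval 31.4% to 38.5%) and 68.3% in the KO early library (501 of 734, 64.8% to 71.6%). At the late stage they were 79.1% in WT (563 of 712, 75.9% to 82.0%) and 62.2% in KO (486 of 781, 58.7% to 65.6%). The share was thus higher late than early in WT and lower late than early in KO, and the stages overlapped. The intermediate libraries held 92.8% in WT (928 of 1000) and 64.2% in KO (540 of 841). The mean share was 51.6% ± 23.6 (SD, n = 2) early and 70.7% ± 11.9 (SD, n = 2) late. The difference of 19.1 points was close to the pooled SD of 18.7 and below the early SD of 23.6. With 2 libraries against 2 an exact permutation test cannot pass 0.05. In the naïve libraries, which hold no tumour, 0 of 454 cells met the rule in either genotype, which allows a share of up to 0.661%. Such intervals and limits cover counting error only, and the share in a cell suspension also depends on dissection and dissociation.

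**Figure D1:**
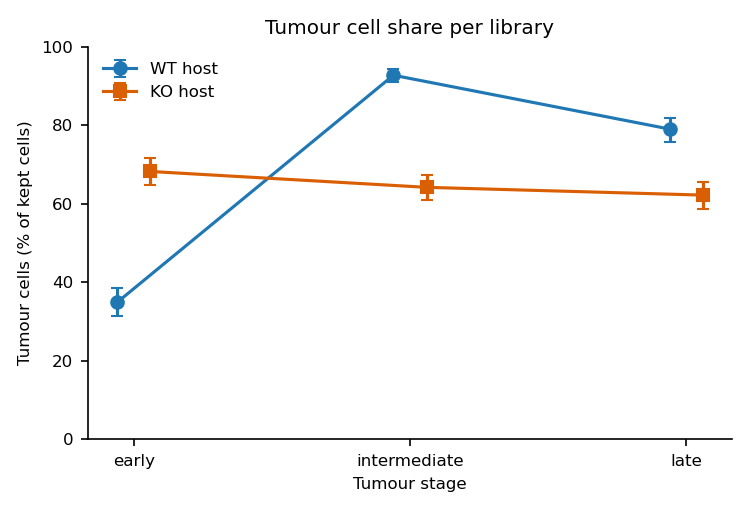
Tumour cells as a percentage of the kept cells (y axis) in each tumour-bearing library by stage (x axis), with exact binomial 95% intervals, 1 library per point. In WT hosts the share was 34.9% early and 79.1% late, and in KO hosts 68.3% early and 62.2% late.

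The tumour cells gave 2872078 UMIs in the WT early library, 3645394 in KO early, 5794673 in WT late and 3584213 in KO late, beside 7988859 and 4613819 in the WT and KO intermediate libraries. The median tumour cell held 6568 UMIs in WT early, 3772 in KO early, 4437 in WT late and 4199.5 in KO late. Levels below are given as CPM, the UMIs of a gene scaled to a common total over the tumour cells of each library, and are compared between libraries and not between genes. Cd44, by which the study named its tumour cluster and which took no part in the choice of the cells, stood at 112 to 159 CPM in the tumour cells of the 6 libraries and at 73.4 to 145 CPM in the remaining cells. Olig1, a glial lineage factor that took no part in the choice, was present in all tumour cell sums (271 to 661 CPM). Acod1, the enzyme that makes itaconate and the gene disrupted in the KO hosts, gave between 5 and 20 UMIs in the tumour cells of each library. In the remaining cells it gave 142, 6 and 4 UMIs in the WT libraries and 27, 6 and 36 in the KO libraries (early, intermediate, late). In these cells WT late was at 6.38 CPM and KO late at 27.3 CPM. Since a 3′ tag can lie outside the disrupted part, these counts check neither label. Of the 28 pairs of libraries 21 shared a barcode, and these were 2 distinct barcodes, each a single base followed by a run of G.

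No gene passed the test of late against early. Of 13421 genes, edgeR's quasi-likelihood test with the genotype as a block called 0 higher and 0 lower at a Benjamini-Hochberg adjusted p of 0.05 (0.0% each way), and the lowest adjusted p was 0.218. At an unadjusted p of 0.05 the same test marked 1104 genes (8.23%), of which 223 (1.66%) were higher late and 881 (6.56%) lower. DESeq2 called 2 genes, Afp higher and Mgp lower. Both late libraries lay above both early libraries for 20.5% of the genes, and below them for 15.7%, which is the background for the counts of members given below. Processed pseudogenes, a class described at the end, made up many of the lower genes. Without them 23.3% of 11652 genes had both late libraries above both early ones and 8.56% below, and 1.9% were higher and 2.56% lower late at an unadjusted p of 0.05. Over all genes the median log2 fold change was 0.01.

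The call count depended on which late library was compared. Without the KO late library and without the block, WT late against both early libraries gave 388 called genes, 138 higher (0.964% of 14320) and 250 lower (1.75%). Without the WT late library, KO late against the same early libraries gave 88, of which 47 were higher (0.332% of 14154) and 41 lower (0.29%). These fits share their early libraries and assume that the lone late library varies as the early ones do. Their only residual is the difference between WT early and KO early, so the late stage cannot be told apart from the lone late mouse. Counts of list members called in such fits, given below, are no test of a difference between the genotypes. With the block kept, the fit without KO late over the other 5 libraries and thus with both intermediate ones called 24 genes lower (0.157% of 15249). Log2 ratios of late over early and the counts of members higher or lower are on the TMM scale, so that a member close to 0 can lie on the other side by the CPM given beside it. Over the 4101 genes with mean levels from 50 CPM upward, the root mean square log2 difference was 0.61 between WT late and WT early, 0.40 between KO late and KO early, 0.43 between the genotypes at the early stage and 0.63 between them at the late stage. The WT early and WT late libraries thus differed about as much as the WT late and KO late libraries did. Between the late and the intermediate library of the same genotype it was 0.37 in WT and 0.34 in KO. Across the 10970 genes with at least 100 UMIs, the log2 ratios of late over early in WT and in KO had a Pearson correlation of 0.05, a description across genes that are not independent.

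**Figure D2:**
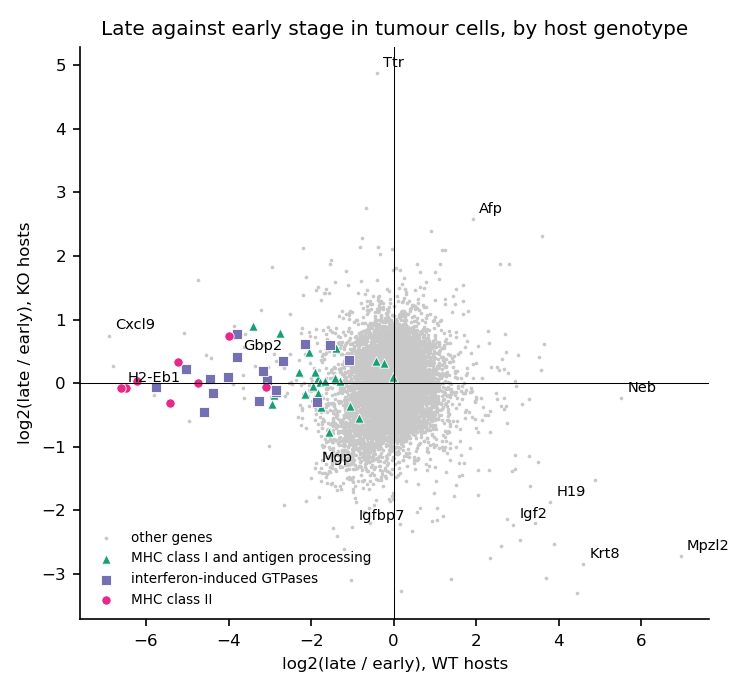
Log2 ratio of late over early in WT hosts (x axis) against that in KO hosts (y axis), 1 point per gene with at least 100 UMIs over the 4 libraries, 1 library per genotype and stage. The members of the MHC class II, GTPase and MHC class I lists lie left of 0 on the WT axis and spread around 0 on the KO axis, while H19, Igf2, Krt8 and Mpzl2 lie at the lower right.

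Antigen presentation genes and GTPases that interferon-γ induces stood low in the tumour cells of the WT late library and high in those of the other 3. H2-Eb1, the β chain of the class II molecule H2-E and the class II gene with the most UMIs, was at 1249 CPM in WT early, 1127 in KO early, 12.8 in WT late and 1119 in KO late. H2-Aa, the α chain of H2-A, was at 941, 910, 10.4 and 908 CPM in the same order. Cd74, the invariant chain that guides class II molecules to the endosome, was at 1121, 1186, 26.2 and 1000 CPM. For each of these genes 1 late library was far below the early libraries and the other close to them. The late stage mean therefore hides a split, and the late-against-early log2 fold changes of -3.26 (H2-Eb1, standard error 1.46), -3.18 (H2-Aa, 1.42) and -2.84 (Cd74, 1.07) did not pass edgeR's test (adjusted p = 0.595, 0.588 and 0.462 after Benjamini-Hochberg adjustment). The WT intermediate library was low as well, with 43.1 CPM of H2-Eb1, 26.8 of H2-Aa and 38.3 of Cd74, whereas KO intermediate held 945, 722 and 1063.

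The regions before these genes are shown because the class II and GTPase genes have their control sequences close to the start of transcription, and a reader can see there the elements known for interferon response and class II expression. The sequences run from 250 bases before to 50 after the RefSeq start (GRCm38.p6), 5′ to 3′ on the gene's strand, for 3 of the 4 GTPase genes with the most UMIs and for H2-Eb1 and H2-Aa. In the GTPase genes the capitals mark the core of the interferon-stimulated response element (GAAA, any 2 bases, GAAA) and TTCNNNGAA, the palindrome of the interferon-γ activated site, and in the class II genes CTGATTGG, the reversed CCAAT box of the Y element, each searched on both strands.
Gbp2 chr3:142620413-142620712 +: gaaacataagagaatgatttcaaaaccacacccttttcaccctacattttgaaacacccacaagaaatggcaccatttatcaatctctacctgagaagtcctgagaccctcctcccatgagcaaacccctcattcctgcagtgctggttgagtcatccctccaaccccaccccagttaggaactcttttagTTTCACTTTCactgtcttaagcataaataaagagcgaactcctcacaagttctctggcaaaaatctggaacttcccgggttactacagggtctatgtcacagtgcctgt
Irgm1 chr11:48871371-48871670 -: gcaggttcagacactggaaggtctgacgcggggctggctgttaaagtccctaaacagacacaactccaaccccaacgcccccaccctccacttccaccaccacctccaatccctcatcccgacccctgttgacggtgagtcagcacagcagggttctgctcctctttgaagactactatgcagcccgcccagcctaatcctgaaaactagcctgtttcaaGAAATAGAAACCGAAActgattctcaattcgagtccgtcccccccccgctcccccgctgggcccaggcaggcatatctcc
Igtp chr11:58199306-58199605 +: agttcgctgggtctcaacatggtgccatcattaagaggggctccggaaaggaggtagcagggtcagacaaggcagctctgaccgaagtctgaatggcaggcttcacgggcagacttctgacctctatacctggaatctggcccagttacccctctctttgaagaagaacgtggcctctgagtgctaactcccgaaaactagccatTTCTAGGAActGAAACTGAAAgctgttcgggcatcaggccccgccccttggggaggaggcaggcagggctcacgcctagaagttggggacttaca
H2-Eb1 chr17:34305617-34305916 +: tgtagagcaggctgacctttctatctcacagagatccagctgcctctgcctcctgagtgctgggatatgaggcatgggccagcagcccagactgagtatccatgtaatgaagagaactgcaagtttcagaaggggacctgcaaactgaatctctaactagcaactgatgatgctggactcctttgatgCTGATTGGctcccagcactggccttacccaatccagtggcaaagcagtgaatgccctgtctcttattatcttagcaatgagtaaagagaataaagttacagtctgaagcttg
H2-Aa chr17:34287774-34288073 -: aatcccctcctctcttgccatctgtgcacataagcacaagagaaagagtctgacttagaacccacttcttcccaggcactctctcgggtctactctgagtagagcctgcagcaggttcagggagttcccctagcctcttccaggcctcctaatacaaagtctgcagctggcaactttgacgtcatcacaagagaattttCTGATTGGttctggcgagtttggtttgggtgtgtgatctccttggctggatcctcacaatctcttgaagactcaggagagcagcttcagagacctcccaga

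The response element core was found, by its first base, at -59 from the start of Gbp2, at -30 and -24 in Irgm1, where the matches overlap, and at -34 in Igtp, where TTCNNNGAA stood at -45. CTGATTGG was found at -62 in H2-Eb1 and at -51 in H2-Aa. Of the 10 GTPase genes with an entry, 9 held the response element core and 6 held TTCNNNGAA, against 3.44% and 8.3% of all 32851 promoters of the same length. CTGATTGG was in 2 of 5 class II genes, in 8 of 20 class I and antigen processing genes and in 4.1% of all promoters. A match describes the letters and is no evidence of binding.

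All 8 class II members tested were lower late than early in WT, each by more than 2-fold, with a median log2 ratio of -5.32 (-5.14 with H2-DMb2, which had no UMI in WT late, set at its limit of 3 counts). In KO the members lay close to 0, with a median of -0.03, and none was past 2-fold. On the TMM scale 5 of the 8 were lower there, and by CPM 3 of the 8. H2-DMa and H2-DMb1, which load peptides onto class II molecules, were at 245 and 165 CPM in WT early, 283 and 194 in KO early, 8.97 and 19.5 in WT late and 296 and 196 in KO late. Ciita, the coactivator of the class II genes and named after its values were seen, was at 14.3, 9.88, 0.518 and 17.6 CPM. No member passed the test. At an unadjusted p of 0.05 5 of 8 were lower late, against 6.56% of all genes, and 3 of 8 had both late libraries below both early ones, against 15.7%, while the stages overlapped for the remaining 5. In WT late against both early libraries all 8 were called lower without the block (1.75% of all genes) and 3 of 8 with the block over 5 libraries (0.157%). In KO late against the same libraries none was called lower (0.29%).

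The summed level of the class II list was 4563 CPM in WT early, 4570 in KO early, 201 in WT intermediate, 3784 in KO intermediate, 89.0 in WT late and 4462 in KO late. Late over early, it was 51.2-fold lower in WT and 0.976-fold in KO. The difference ran through nearly all tumour cells rather than a few: the median tumour cell held 42.1 class II UMIs per 10000 in WT early, 48.9 in KO early, 38.0 in KO late and 0.0 in WT late. Below 10 per 10000 were 4.37%, 3.59% and 8.64% of the tumour cells of the first 3 and 98.2% of those of WT late. Class II RNA is abundant in myeloid cells. The sums were also taken in tumour cells with no UMI of Tyrobp, Fcer1g or Ctss, an alternative chosen after the data were seen. These cells held 4563 CPM in WT early (195 cells), 4367 in KO early (342 cells), 51.9 in WT late (519 cells) and 4035 in KO late (374 cells). In these cells the log2 ratio of late over early was -6.46 in WT and -0.11 in KO. The cell rule had already limited Tyrobp, Fcer1g and Ctss, so the part of myeloid RNA in the class II sums was not tested.

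**Figure D3:**
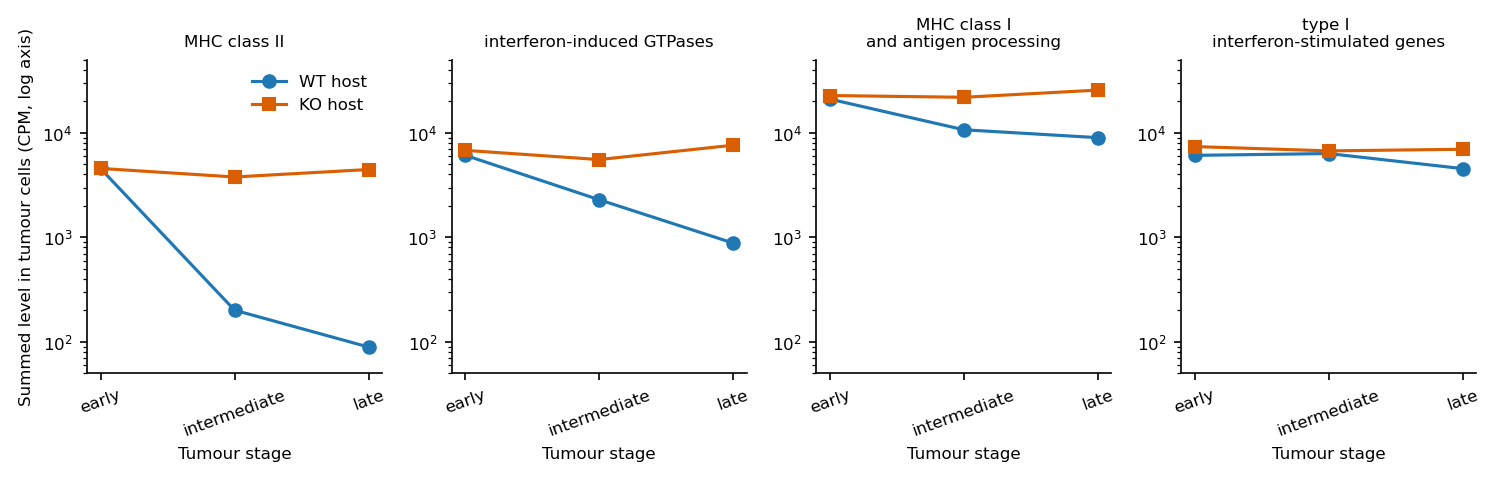
Summed level of 4 gene lists in tumour cells (y axis, CPM, log scale) by stage (x axis), 1 library per point, WT hosts as circles and KO hosts as squares. The MHC class II sum was 4563 CPM early and 89.0 CPM late in WT and 4570 and 4462 CPM in KO, and at the late stage the type I sums were 4551 CPM in WT and 6971 CPM in KO.

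The interferon-induced GTPases were likewise lowest in WT late. Igtp (chromosome 11, 58199556 to 58207591 on GRCm38, plus strand), an Irg GTPase, was at 592 CPM in WT early, 913 in KO early, 63.2 in WT late and 783 in KO late. Tgtp2, of the same family, was at 175, 144, 7.08 and 110 CPM, and Irgm1, a regulator of that family, at 792, 880, 224 and 751. In these 3 genes KO late was also somewhat below KO early, with log2 ratios of -0.29, -0.45 and -0.29. Gbp2, the guanylate-binding protein gene with the most UMIs, was at 1055, 1180, 77.3 and 1649 CPM, so that KO late was the highest library and WT late the lowest. Gbp6 was at 255, 231, 35.7 and 224 CPM. Late-against-early log2 fold changes were -1.77 for Igtp (standard error 0.60), -2.40 for Tgtp2 (0.78) and -1.69 for Gbp2 (0.86), none past edgeR's test.

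Of the 20 GTPases listed 19 were tested and 19 were lower in WT late than in WT early, all by more than 2-fold (median log2 ratio -3.16), against 8 of 19 in KO, none by more than 2-fold (median 0.06). The late-against-early median was -1.48, and 12 of 19 were lower late at an unadjusted p of 0.05, against 6.56% of all genes. Both late libraries lay below both early ones for 4 of 19 (21.1%, against 15.7% of all genes). In WT late against both early libraries 18 of 20 were called lower without the block (1.75% of all genes) and 9 of 20 with the block over 5 libraries (0.157%), and in KO late 0 of 20 either way. The summed level was 6109 CPM in WT early, 6808 in KO early, 2291 in WT intermediate, 5555 in KO intermediate, 881 in WT late and 7630 in KO late. As for class II, the WT intermediate library lay between the early and the late one. Below 10 GTPase UMIs per 10000 were 1.59% of the tumour cells in WT early, 50.8% in WT intermediate and 71.4% in WT late.

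MHC class I and antigen processing genes were lower in WT late to a smaller extent. B2m, the light chain of class I molecules, was at 6700 CPM in WT early, 8186 in KO early, 2798 in WT late and 8733 in KO late. H2-T23 and H2-T22, nonclassical class I heavy chains, were at 421 and 301 CPM in WT early, 272 and 278 in KO early, 55.6 and 69.6 in WT late and 227 and 258 in KO late. Class I heavy chain genes are close copies of one another and may share reads, so their single values are uncertain. Psme2, a subunit of the proteasome activator that interferon-γ induces, was at 330, 411, 113 and 251 CPM and so was lower late in both genotypes (log2 fold change -1.18, standard error 0.29, adjusted p = 0.286 by edgeR with Benjamini-Hochberg adjustment). Nlrc5, the coactivator of class I genes, was at 36.9, 36.5, 10.9 and 29.3 CPM. On the TMM scale all 24 members (by CPM 23) were lower in WT late (median log2 ratio -1.80) and 9 of 24 in KO late (median 0.06). Both late libraries were below both early ones for 5 of 24 (20.8%, against 15.7%), 10 of 24 were lower late at an unadjusted p of 0.05 (6.56% of all genes), and 19 of 24 were called lower in WT late against both early libraries without the block (1.75% of all genes), with 0 of 24 in KO late (0.29%). With the block over 5 libraries all of these class I calls were lost (0 of 24). The summed level was 21076 CPM in WT early, 22797 in KO early, 9004 in WT late and 25702 in KO late.

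Among the signalling genes of the pathway, Irf1, a transcription factor, was at 255 CPM in WT early, 267 in KO early, 54.5 in WT late and 275 in KO late, and Irf8, another interferon regulatory factor, at 68.6, 117, 5.35 and 104 in the same order. Socs1, which inhibits the Jak kinases, was at 32.0, 52.9, 10.5 and 44.6 CPM. Each of these 3 had WT late as the lowest of the 4 libraries. Of 19 signalling genes 13 were lower late in WT and 6 in KO, with medians of -0.47 and 0.10, and 7 of 19 were called lower in WT late against both early libraries without the block (1.75% of all genes) and 0 of 19 with it. The late-against-early median was -0.19, with 0 of 19 past the test.

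Among genes known mainly as targets of type I interferon, over 40 members the late-against-early median was -0.21, with -0.43 in WT (30 of 40 lower) and 0.19 in KO (12 of 40 lower). Ifitm3, a membrane protein that blocks virus entry and the member with the most UMIs, was at 1038 CPM in WT early, 2088 in KO early, 1198 in WT late and 1641 in KO late, within the early range. Usp18, Bst2 and Zbp1 had the lowest p of the list, with 27.4 to 60.6 CPM for Usp18, 488 to 1052 for Bst2 and 80.9 to 252 for Zbp1 over the 4 libraries. Usp18 and Bst2 were lower late in both genotypes (Usp18 log2 ratios -0.98 and -0.54, Bst2 -0.95 and -0.54). The summed level was 6096, 7401, 4551 and 6971 CPM in WT early, KO early, WT late and KO late. Of the 40 members 6 were called lower in WT late against both early libraries without the block (1.75% of all genes) and 0 with it.

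Of 15 tested chemokines and checkpoint ligands, 10 were lower late in each genotype (median -1.03 in WT and -0.22 in KO), and both late libraries were below both early ones for 5 (33.3%, against 15.7% of all genes). Cxcl10, which attracts T cells through the receptor Cxcr3, was at 452 CPM in WT early, 529 in KO early, 55.9 in WT late and 660 in KO late. Cd274, the ligand PD-L1 of the T cell inhibitory receptor PD-1, was at 40.0, 30.7, 4.83 and 27.6 CPM, and Ccl5, a chemokine for T cells and monocytes, at 48.8, 67.8, 12.4 and 58.3. Cxcl9 was at 88.8 CPM in WT early and at 9.05, 0.345 and 16.2 in the other 3, so its early libraries also differed from each other. None passed the test.

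In the remaining cells of the same libraries, whose mix of cell types differs between libraries, the class II and GTPase sums were also lower in WT intermediate and WT late than in the other 4 libraries. Their class II sum was 14144 CPM in WT early, 21001 in KO early, 1383 in WT intermediate, 16670 in KO intermediate, 2797 in WT late and 16321 in KO late, against 205 and 124 CPM in WT and KO naïve brain. The GTPase sum was 2583, 3632, 746, 2995, 598 and 4859 CPM, against 483 and 505. Ifng, the gene of interferon-γ, was looked up after these values were seen. In the remaining cells it gave 83 UMIs in WT early (in 20 of 470 cells), 81 in KO early (16 of 233), 11 in KO intermediate (5 of 301) and 30 in KO late (13 of 295). It gave 0 in WT intermediate and WT late, which held fewer such cells, 72 and 149. In the tumour cells it gave 45 UMIs in 13 cells of KO early, 13 UMIs in 5 cells of KO late and 0 in the other 4 libraries. The lymphocyte marker list summed to 1999 CPM in the remaining cells of WT early, 1416 in KO early, 839 in WT intermediate, 1863 in KO intermediate, 309 in WT late and 1711 in KO late. The part of these cells and transcripts in the tumour cell values was not tested.

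The medians of the hypoxia and glycolysis lists had opposite signs in WT and KO, a difference that was not tested. Of 24 hypoxia genes 21 were higher late in WT (median log2 ratio 0.60) and 22 were lower late in KO (median -0.28), so the late-against-early median was 0.03. That median ran from -0.41 to 0.66 when 1 library was left out. Fam162a, a mitochondrial protein induced by low oxygen, was at 130 CPM in WT early, 446 in KO early, 247 in WT late and 237 in KO late. Both late libraries lay between the early ones, and the intermediate ones did too, with 301 and 242 CPM. Ankrd37 was at 2.79 CPM in WT early, 22.2 in KO early, 17.9 in WT late and 20.9 in KO late, and Ndrg1 at 1.39, 13.2, 11.7 and 10.6. For each of these 3 genes WT early was the lowest and KO early the highest of the 4 libraries. Higd1a was at 14.6, 50.5, 15.7 and 18.7 CPM, with KO early alone high, and Angptl4 at 11.8, 13.4, 7.94 and 6.70 CPM, lower late in both genotypes.

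Of the glycolysis genes, 15 of 20 were higher late in WT (median 0.39) and 12 of 20 lower late in KO (median -0.26). Ldha, which makes lactate, was at 402 CPM in WT early, 954 in KO early, 678 in WT late and 587 in KO late. Pgk1 was at 75.2, 181, 70.7 and 108 CPM and Eno1 at 345, 740, 401 and 400. Slc16a3, which exports lactate, was at 29.6, 157, 150 and 116 CPM, while the related carrier Slc16a1 was higher late in both genotypes, at 32.0, 37.6, 50.7 and 48.8. The summed level was 2122 CPM in WT early, 4586 in KO early, 3182 in WT late and 3137 in KO late, so the early libraries differed from each other more than from the late ones.

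The sums of the proliferation lists were close to each other in the 4 libraries, while single members varied more. The S phase list summed to 3197, 3291, 3705 and 3468 CPM in WT early, KO early, WT late and KO late, and both late libraries were above both early ones for 10 of 34 members (29.4%, against 20.5% of all genes). Pcna, the sliding clamp of DNA replication, was at 233, 173, 243 and 230 CPM, Lig1 at 148, 134, 197 and 177, and Cdc6 at 23.3, 50.5, 42.6 and 58.0. Slbp, which binds histone messenger RNA, had the lowest p of the list and was lower late, at 89.5, 92.2, 67.5 and 57.2. The mitosis list summed to 10237, 8749, 10681 and 8379 CPM and its median was -0.02. Top2a, which untangles DNA before division, was at 1379, 1006, 1120 and 1072 CPM. Cks2, a cofactor of cyclin-dependent kinases, was lower late, at 27.2 and 24.1 CPM early and 16.7 and 5.86 late. Among Myc and nucleolar growth genes (24 tested, median 0.08), Ncl was at 3182, 2685, 3912 and 3248 CPM, and Odc1, the first enzyme of polyamine synthesis and a Myc target, at 111, 60.1, 39.7 and 39.9 CPM, lower late (log2 fold change -1.11, standard error 0.29).

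Stress lists had late-against-early medians between -0.20 and 0.14. Sesn2, which restrains mTORC1 and is a target of both p53 and Atf4, was at 41.1 CPM in WT early, 34.3 in KO early, 24 in WT late and 20.4 in KO late, and Gdf15 at 37.6, 30.2, 25.9 and 15.6, so both were lower late in both genotypes. Cdkn1a, the p53 target with the most UMIs, was at 140, 206, 210 and 193 CPM. In the list of the unfolded protein and integrated stress responses, Hsp90b1, a chaperone of the endoplasmic reticulum, was at 3108, 3012, 2831 and 4106 CPM, with KO late alone high. Hspa1a, an inducible cytosolic chaperone, was at 11.1, 19.7, 4.66 and 6.70 CPM. It was 1 of 8 heat shock members of 17 (47.1%) with both late libraries below both early ones, against 15.7% of all genes, though the most abundant member, Hsp90ab1, was at 7708, 7990, 8914 and 9287 CPM and thus higher late. Immediate early genes can be switched on by tissue dissociation. Of 24, 13 were lower late in WT and 21 in KO on the TMM scale, and 10 and 19 by CPM. Fos was at 1102, 1345, 1104 and 1002 CPM and Fosb at 350, 150, 124 and 150. Among NF-κB targets (median -0.20), Nfkbia was at 193, 210, 210 and 174 CPM, Nfkb2 at 53.6, 39.2, 17.4 and 36.8, and Cd83 at 1.74, 6.31, 7.25 and 15.1.

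Lipid and iron lists had late-against-early medians between -0.02 and 0.11. Over 24 cholesterol synthesis genes the median was 0.26 in WT and -0.01 in KO. Hmgcs1, an early enzyme of that pathway, was at 63.0 CPM in WT early, 104 in KO early, 88.9 in WT late and 139 in KO late. Elovl6, a fatty acid elongase, was higher late in both genotypes, at 72.4 and 75.4 CPM early and 105 and 131 late, whereas Scd2, a desaturase, was at 234, 338, 177 and 454. Tfrc, the transferrin receptor, was at 119, 96.0, 113 and 195 CPM. Gpx4, which reduces lipid peroxides, was at 15, 15.1, 7.08 and 8.93 CPM, lower late in both genotypes. Txn1 was at 1603, 1989, 1946 and 1992 CPM.

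Among matrix and identity genes, 30 of 38 mesenchymal and matrix genes were higher late in WT (median 0.43) and 18 of 38 in KO (20 by CPM, median -0.01). Vim, an intermediate filament protein, was at 2128 CPM in WT early, 3160 in KO early, 2955 in WT late and 3734 in KO late, and Col6a1, a collagen VI chain, at 50.8 and 45.5 CPM early and 78.5 and 74.2 late. Sox2, a transcription factor of neural stem cells, was higher late in both genotypes, at 198 and 289 CPM early and 306 and 467 late (log2 fold change 0.60, standard error 0.26). Olig2 was at 160, 88.3, 229 and 116 CPM and Olig1 at 329, 271, 495 and 353. Tubb3, a tubulin of neurons that gliomas also express, was lower late, at 215 and 310 CPM early and 101 and 193 late (-0.95, standard error 0.25). The glial and stem cell list as a whole had a median of 0.01 over 20 genes. Bmp2 was at 1.74, 12.1, 10.3 and 22.6 CPM, Id3, a target of BMP signals, at 329, 587, 248 and 442, and Hbegf, a ligand of the EGF receptor, at 243, 368, 288 and 489. None of these genes passed the test.

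**Figure D4:**
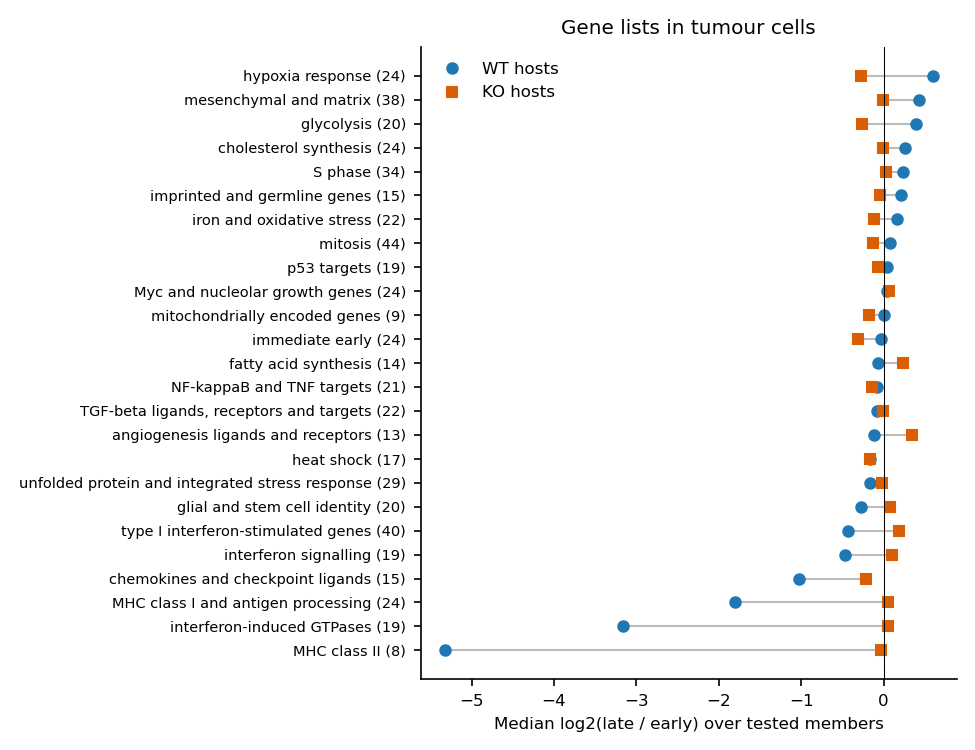
Median log2 ratio of late over early over the tested members of each gene list (x axis), in WT hosts (circles) and KO hosts (squares), with the number of tested members in brackets. MHC class II, the interferon-induced GTPases and MHC class I lie at -5.32, -3.16 and -1.80 in WT and within 0.1 of 0 in KO, and the hypoxia list at 0.60 in WT and -0.28 in KO.

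Of 15 imprinted and germline genes tested, 1 had both late libraries above both early ones and 1 below (6.67% each, against 20.5% and 15.7% of all genes). H19 (chromosome 7, 142575529 to 142578143 on GRCm38, minus strand), a noncoding RNA expressed from the maternal allele, was at 195 CPM in WT early, 24.4 in KO early, 140 in WT intermediate, 27.5 in KO intermediate, 2750 in WT late and 6.70 in KO late. Igf2, its paternally expressed neighbour, was at 3.83, 5.21, 6.13, 2.60, 31.9 and 0.837 CPM in the same order. WT late was the highest and KO late the lowest library for both genes. The late-against-early log2 fold change of H19 was 1.26 (standard error 1.20, adjusted p = 0.957 by edgeR with Benjamini-Hochberg adjustment).

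Genes with the same direction in both genotypes are given here from those with the lowest p among protein-coding genes with at least 100 UMIs, chosen after their values were seen since the test called none. Of 9335 such genes 4407 had the same direction in WT and KO, and 16 were higher late by more than 2-fold in both and 15 lower. Afp (chromosome 5, 90490737 to 90508907, plus strand), α-fetoprotein, a serum protein of the fetal liver and yolk sac, was at 3.13 CPM in WT early, 15.6 in KO early, 13.3 in WT late and 99.6 in KO late (log2 fold change 2.40, standard error 0.33, adjusted p = 0.218 by edgeR with Benjamini-Hochberg adjustment). KO early was above WT late, so its stages overlapped. Prkg2, a cGMP-dependent protein kinase, was at 11.8, 34.3, 35.2 and 101 CPM. Apod, a lipid-binding protein of glia, was at 82.9 and 158 CPM early and 229 and 426 late, and Hspb8, a small heat shock protein, at 10.4 and 16.2 early and 35.2 and 41.9 late. In these 3 genes and in Gap43, a growth cone protein (177 and 92.4 CPM early, 359 and 194 late), both late libraries were above both early ones, for Prkg2 by a small margin. Itga4, an integrin chain, was at 38.0, 27.4, 135 and 45.8 CPM.

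Mgp (chromosome 6, 136872435 to 136875823, minus strand), matrix Gla protein, an inhibitor of calcification, was at 2554 CPM in WT early, 3446 in KO early, 697 in WT late and 1427 in KO late (log2 fold change -1.63, standard error 0.34, adjusted p = 0.251 by edgeR with Benjamini-Hochberg adjustment). The late libraries were below both early ones, but the KO intermediate library held 4791 CPM, the highest of the 6. Bgn, the proteoglycan biglycan, was at 28.6 and 19.5 CPM early and 9.66 and 7.53 late, and Fam210b, a mitochondrial protein, at 26.5 and 53.8 early and 8.63 and 20.6 late. Igfbp7, which binds insulin-like growth factors, was at 75.9 CPM in WT early, 28.3 in KO early, 38.5 in WT late and 5.86 in KO late. Il12rb1, a chain of the receptors for interleukins 12 and 23, was at 40.0, 33.7, 4.66 and 17.6 CPM.

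**Figure D5:**
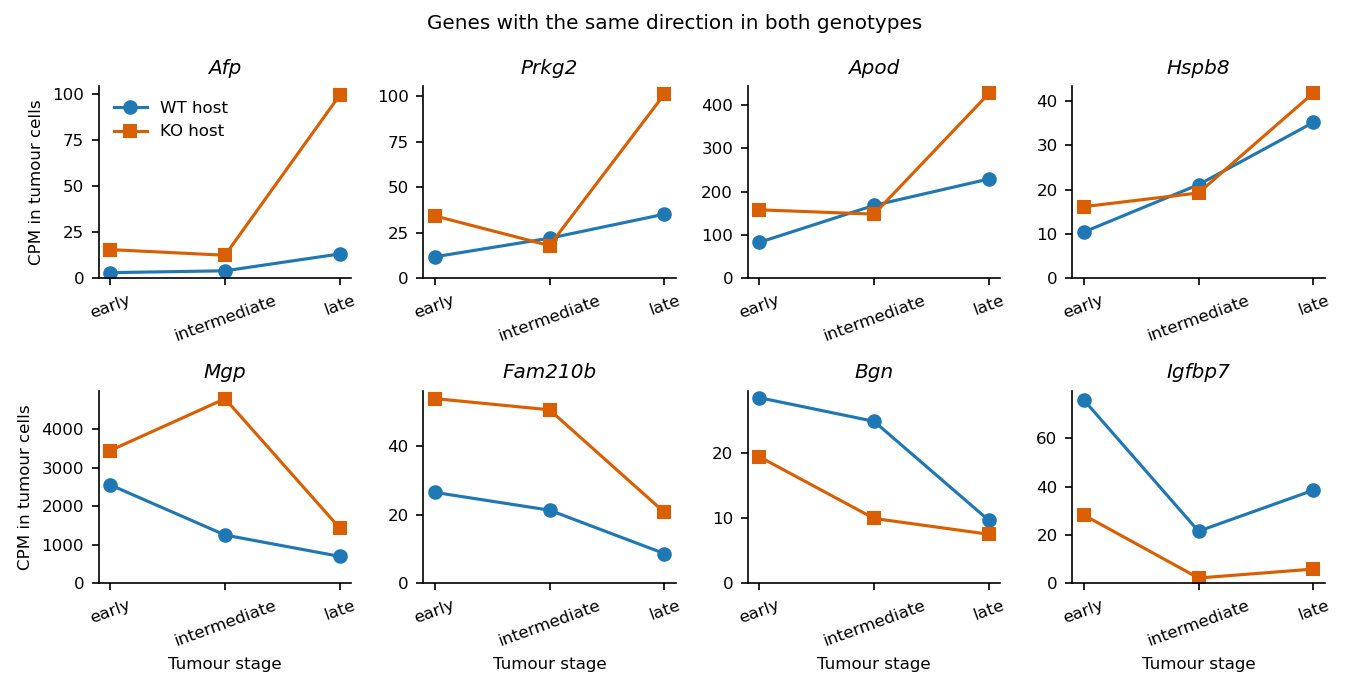
Level in tumour cells (y axis, CPM, linear from 0) of 8 genes by stage (x axis), WT hosts as circles and KO hosts as squares, 1 library per point. Afp, Prkg2, Apod and Hspb8 were higher late than early in each genotype and Mgp, Fam210b, Bgn and Igfbp7 lower, and the plot of Mgp shows its highest value, 4791 CPM, at the KO intermediate stage.

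Genes with the widest gap between the genotypes were also chosen after their values were seen. Gbp4, a guanylate-binding protein gene, was at 447, 397, 13.6 and 485 CPM. In the other direction, Mpzl2, a cell adhesion protein of epithelia, was at 0.348 CPM in WT early, 5.76 in KO early, 96.3 in WT late and 0.558 in KO late. Krt8, an epithelial keratin, was at 7.66, 39.0, 199 and 5.30 CPM, and Neb, the giant protein of the thin filament of skeletal muscle, at 2.09, 3.84, 117 and 3.35. WT late was the highest library for all 3. In the WT intermediate library Neb was at 83.6 CPM, Krt8 at 51.2 and Mpzl2 at 2.50, and in KO intermediate they were at 1.52, 5.64 and 0.0. Ttr, transthyretin, the main product of the choroid plexus, was at 32.0 CPM in WT early, 2.74 in KO early, 570 in WT intermediate, 24.5 in KO intermediate, 24.7 in WT late and 96.3 in KO late.

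Markers of other cell types were detected in the tumour cells. Of the 4 libraries, KO late held the highest sum for the microglia, macrophage and monocyte, lymphocyte, endothelial, astrocyte, neuron and choroid plexus lists. WT late held the lowest for the microglia, lymphocyte, erythroid, endothelial, neuron and choroid plexus lists, as for the class II and GTPase sums. It held the highest for the oligodendrocyte, oligodendrocyte precursor and dendritic cell lists. The neutrophil, erythroid and mural lists were highest in an early library. The microglia list summed to 214 CPM in WT early, 236 in KO early, 180 in WT late and 292 in KO late, its most abundant member being Olfml3, at 88.1, 72.1, 44.4 and 86.2 CPM. The macrophage and monocyte list summed to 73.5, 155, 106 and 187 CPM, with 3 of 11 genes higher late at an unadjusted p of 0.05 (1.66% of all genes), and its most abundant gene, Lyz2, stood at 29.2, 56.5, 29.3 and 41.6. Lymphocyte markers summed to 29.2, 59.0, 14.7 and 209 CPM, with Nkg7 at 3.83, 10.4, 0.863 and 27.6 and Gzmb at 0.348, 6.86, 0.173 and 33.2, so KO late was the highest. The late-against-early median of this list was 0.51. Without the block it was 2.33 when WT late was left out and -3.03 when KO late was left out. The endothelial sum was 258, 514, 110 and 542 CPM, its member with the most UMIs being Ly6c1 (172, 304, 7.25 and 324 CPM), which was lowest in WT late. Of its 5 tested genes 3 were lower late at an unadjusted p of 0.05 (6.56% of all genes), and its late-against-early median was -2.09. That median was -0.09 without KO early and without the block, -3.52 without WT early, in the fit over the other 5 libraries, and -0.59 with all 4 libraries and no block. Enpp2, listed for the choroid plexus, was lowest in WT late too, at 862, 537, 72.5 and 962 CPM. Oligodendrocyte markers summed to 1657, 1992, 3141 and 1921 CPM in the tumour cells, with Cldn11 at 15, 50.7, 96.1 and 69.2, and 12 of 12 were higher late in WT and 6 of 12 in KO, with 4 of 12 higher late at an unadjusted p of 0.05 (1.66% of all genes). The part of these transcripts in the stage comparison was not tested.

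Several classes of RNA that can reflect library make-up differed as well. Mitochondrial ribosomal RNA made up 4.23% of tumour cell UMIs in WT early, 1.16% in KO early, 1.04% in WT late and 0.947% in KO late, and 6.21%, 1.43%, 1.68% and 1.29% of the UMIs of the remaining cells, so WT early was the highest of these 4 in both. The intermediate libraries held 2.11% (WT) and 3.33% (KO) in tumour cells. The most abundant such RNA, mt-Rnr2, was at 41381 CPM in WT early, 11432 in KO early, 10289 in WT late and 9298 in KO late. Mitochondrial protein-coding genes were at 0.370%, 0.390%, 0.479% and 0.418%. Processed pseudogenes, a class chosen after its values were seen, can share reads with the genes they were copied from and took 9.08% and 9.24% of tumour cell UMIs early and 7.57% and 6.60% late. Of 1769 tested, 1112 (62.9%) had both late libraries below both early ones, and they made up 583 of the 881 genes lower late at an unadjusted p of 0.05. In the remaining cells both late libraries were also below both early ones, with 6.13% (WT) and 6.72% (KO) early and 4.64% (WT) and 5.16% (KO) late. Ribosomal protein genes themselves were at 5.45%, 6.43%, 6.28% and 5.00%. By transcript length, the median late-against-early log2 ratio in KO was -0.11 for the shortest of 3 equal classes of protein-coding genes, 0.08 for the middle class and 0.25 for the longest, and in WT 0.13, 0.08 and 0.02. What part these shifts have in single-gene values was not tested.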

How the data were processed

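The authors deposited raw UMI counts from the Drop-seq pipeline, 1 table per library with genes in rows and barcodes in columns. The submitters' processing notes name bcl2fastq 2.0, STAR (version not given in the sources used here) and GRCm38/mm10. Each table lists 3000 barcodes. As in the study's methods, the 1000 barcodes with most UMIs per library, genes found in at least 30 of these 8000 cells (18473 of 32502) and then cells with at least 1000 genes were kept. The study names no doublet removal and none was applied. UMIs of tumour cells were summed per library. The early and late sums were tested with edgeR 4.0.16 (R 4.3.3; TMM, filterByExpr, quasi-likelihood, genotype as block, 1 residual degree of freedom) with Benjamini-Hochberg adjustment over 13421 genes. A saturated design leaves no test of whether stage effects differ between genotypes. Standard errors are the log2 fold change over the square root of F. Ratios of late over early within a genotype compare log2 CPM with a prior count of 2, with no test. Gene positions are GENCODE M21 (GRCm38), promoters RefSeq (GRCm38.p6).

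Genes were named as follows: those past the threshold with at least 100 UMIs (none passed) and, from each list, up to 4 members with the lowest p among those with at least 100 UMIs and the member with the most UMIs. Some genes that this rule names are not reported here. Other names are said in the text to be chosen after their values were seen. The members and lists were chosen with earlier results of these data known. Labels give no sequencing batch. The alternatives were DESeq2 1.42.0, other scalings and filters, other designs, each library left out, other cell rules, thinning to 222 cells of 2000 UMIs per library, and removal of the 5% of cells with the highest Scrublet score (scanpy 1.11.5).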

Additional observations from a re-analysis of the deposited data

Results flagged for a closer look

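The results given here moved in opposite directions in WT and KO hosts, late over early. With 1 library per genotype and stage the difference between the genotypes was not tested, since a term for it would leave no residual degree of freedom. The median log2 ratio of the hypoxia list was 0.60 in WT and -0.28 in KO, and that of the glycolysis list 0.39 in WT and -0.26 in KO. The lymphocyte markers had a median of -1.31 in WT and 1.61 in KO, among them Trbc2, a constant region of the T cell receptor, with -2.21 and 2.12, and Nkg7, a granule protein of NK and T cells, with -1.76 and 1.31. H19 had log2 ratios of 3.78 in WT and -1.87 in KO, and Igf2 of 2.90 and -2.22. Dcn, the fibroblast proteoglycan decorin, had 1.05 and -1.96. Some of these ratios rest on low levels. In WT the whole lymphocyte list summed to 29.2 CPM early and 14.7 late, and Igf2 was at 0.837 CPM in KO late.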

How the results depend on the processing

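With 1 mouse per library and 1 residual degree of freedom, the comparison could resolve only differences that WT and KO hosts shared. Of 13 alternatives with all 4 libraries, 12 gave 0 called genes, all with edgeR (406 to 1244 genes at an unadjusted p of 0.05), and DESeq2 gave 2. Leaving out 1 library at a time gave 0 to 388 called genes, the largest counts without KO late (388) and without WT late (88), both without the block, against 30 and 1 when fitted over the other 5 libraries. The median log2 fold change of the MHC class II list ran from -5.92 to 0.02 when 1 library was left out, that of the GTPases from -3.27 to 0.11 and that of MHC class I from -1.80 to 0.09. Over all other settings these medians ran from -2.99 to -0.99, from -1.52 to -0.81 and from -0.92 to -0.56. The summed levels had a log2 ratio of late over early of -1.0 for class II and -0.60 for the GTPases, of -5.68 and -2.87 without KO late and of -0.03 and 0.24 without WT late. Other lists also moved with the library left out, the cholesterol synthesis median from -0.25 to 0.56 and the fatty acid synthesis median from -0.21 to 0.48. The median of the lymphocyte markers ran from -3.03 to 2.33 and that of the macrophage and monocyte markers from -0.87 to 0.73. That of the hypoxia list ran from -0.41 to 0.66 and that of the immediate early list from -0.35 to 0.15. Library totals in place of TMM moved the median of all genes to 0.07. The genotype block paired the libraries of each host genotype, and without it 0 genes were called as well, with 894 at an unadjusted p of 0.05.

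Of 2249 pairs of a named gene and a setting, 119 had the opposite sign to the reported value, and in 23 of them the value was past the threshold or both values were larger than their standard errors. Without WT late and without the block the log2 fold change was 0.50 for Ciita, 0.51 for Gbp2 and 0.38 for Cxcl10. In the same fit it was 0.42 for Enpp2, 0.39 for Ly6c1 and -2.21 for Krt8. Also without WT late, H19 was at -2.14 with the block and -4.04 without it. Igf2 was at -2.32 and -2.44 in these fits and Mpzl2 at -2.54 and -2.50. Without WT early and with the block the log2 fold change was -0.86 for Ndrg1, 0.27 for Olfml3 and -3.33 for Mpzl2. For Slc16a3 it was -0.44 with the block and -0.30 without it. Without KO early it was 0.25 for Eno1, with the block. Without KO late it was -0.58 for Ttr with the block and, without the block, -4.28 for Gzmb and -3.09 for Nkg7. Of these, Krt8, Nkg7 and H19 were past the threshold of edgeR, each in the fit without the block. H19 was past it in the other direction without KO late, at 3.94 to 4.63. Cdc6 stood at -0.86 with equal, thinned cells and Lyz2 at 0.88 with at least 2000 genes per cell. Apart from the libraries left out, the cause was not tested. Some marker lists had no value in some alternatives because no member was tested.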
